A study of Mus musculus with 9 samples.

Results

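The cytosolic ribosomal protein genes are described here in mouse muscle and kidney. Members were taken by symbol: Rps or Rpl followed by a digit, without the S6 kinase genes (10 symbols starting Rps6k) and without symbols marked as pseudogenes (6 symbols with -ps). This gave 84 of 24421 gene symbols, 34 of them Rps and 50 Rpl. Of these, 73 are canonical subunits of the ribosome and 11 are paralogues or genes that share the name (Rpl3l, Rpl10l, Rpl22l1, Rpl36al, Rpl37rt, Rpl39l, Rpl7l1, Rps4l, Rps27l, Rps27rt and Rps19bp1). The last of these encodes a protein that binds Rps19 and is no ribosomal subunit. Rpl3l was included for its tissue pattern and Rpl29 for its pattern with the knockout label, so their levels by tissue and by label are descriptions with no test.

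RNA was sequenced from 9 mouse libraries. Muscle came from 2 wild type samples given PBS (libraries 1 and 2), and from 1 each of tumour-bearing given PBS, tumour-bearing given MDC, wild type given DKK1, beta-arrestin knockout given PBS and beta-arrestin knockout given DKK1. Kidney came from 1 wild type and 1 tumour-bearing sample, both given PBS. DKK1 is a secreted inhibitor of Wnt signalling that binds the receptors LRP5 and LRP6. Beta-arrestins carry activated receptors into the cell. By its title the series concerns cancer cachexia, the loss of muscle and fat that goes with a tumour, and the endocytosis of LRP6 that Dkk1 induces. What MDC stands for, the tumour model, the deleted beta-arrestin gene, the strain, the age and whether libraries hold 1 animal or a pool are not stated by the labels. Both beta-arrestin genes were expressed in the libraries labelled knockout, with Arrb1 at 20.5 and 28.2 CPM (17.3 and 20.3 in the wild type pair) and Arrb2 at 9.61 and 7.98 CPM (7.59 and 7.86), so these libraries are called by their label throughout.

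A ribosome has a small subunit, which reads the mRNA, and a large subunit, which joins amino acids. Each subunit is an RNA core clothed in ribosomal proteins, most of them present in a single copy. Their genes are expressed in every cell at high and balanced levels, and their mRNAs mostly start with a C followed by a run of pyrimidines, the terminal oligopyrimidine motif, through which mTORC1 and the RNA-binding protein Larp1 set how much of each mRNA is translated. In muscle, protein synthesis on these ribosomes and protein breakdown together set muscle mass.

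The start of the transcript is the sequence feature this family is best known for, and a few starts are shown because most members moved as a block and a few did not. RefSeq promoter sequences on build GRCm38.p6 were matched for 64 of the 84 members, with 76 start sites. Each line shows the sense strand 5′ to 3′, with 30 bases before the start site and the first 20 bases of the transcript, and capitals mark the uninterrupted run of pyrimidines that begins with C at the annotated start site. Rps6, Rpl15 and Rps27 followed the family, and Rps18, Rpl26 and Rps2 went against it.
Rps6 (chr4:86857348-86857397, minus strand): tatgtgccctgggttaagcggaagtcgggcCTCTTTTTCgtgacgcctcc
Rpl15 (chr14:18270967-18271016, minus strand): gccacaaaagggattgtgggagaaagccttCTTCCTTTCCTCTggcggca
Rps27 (chr3:90213629-90213678, minus strand): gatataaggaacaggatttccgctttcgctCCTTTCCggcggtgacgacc
Rps18 (chr17:33955646-33955695, minus strand): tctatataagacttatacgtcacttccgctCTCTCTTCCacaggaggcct
Rpl26 (chr11:68901536-68901585, plus strand): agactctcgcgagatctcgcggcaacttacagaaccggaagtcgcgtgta
Rps2 (chr17:24720033-24720082, plus strand): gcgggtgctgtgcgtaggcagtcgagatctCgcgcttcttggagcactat

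A C followed by 4 pyrimidines stood exactly at the annotated start in 12 of 64 canonical start sites (18.8%), against 2.47% of 32775 start sites of other genes. Allowing a distance of 10 bases either side, a search added after seeing the data, gave 54.7% of the canonical start sites against 30.7%. In the 300-base window (250 before the start and 50 from it, either strand), CGGAAG was found in 62.5% of canonical promoters and 16.8% of other promoters. AAGATGGC stood in 10.9% against 2.73%, CACGTG in 12.5% against 7.14%, GGGCGG in 59.4% against 35.6% and TATAAA in 7.81% against 13.6%. These matches are letters in a window and were not tested as sites. Rps18, which went against the family, carries a pyrimidine start of the same kind as Rps6. So does Rpl35a, which also went against it and is not shown. It has a run of 8 pyrimidines at 1 annotated start and runs of 1 and 0 at its others. Rpl4 and Rps16, which followed the family and are not shown, have no such run at the annotated start.

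Total counts ranged from 21358854 to 32607835 per muscle library and were 42480786 (wild type) and 44421797 (tumour) in kidney. Letters in the names of the deposited tables put wild type library 1 and both tumour libraries of muscle in a set B, wild type library 2, the DKK1 libraries and the libraries labelled knockout in a set C, and the kidney pair in a set A. The labels do not say what the letters stand for. Each group other than wild type PBS muscle has 1 library, so the spread in every muscle test comes from that pair, which has 1 library in each set. Nothing says that replicates came from separate animals. The pair also differed in its marker genes. By a 2-fold change, 7 of 7 slow fibre, 8 of 8 macrophage and 6 of 7 adipocyte markers were higher in library 2. In the same library 5 of 8 skeletal muscle markers, 7 of 7 kidney tubule markers and 6 of 8 neutrophil markers were lower. In tissue as a whole, fewer cells of a type and less RNA per cell cannot be told apart.

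Ribosomal protein mRNAs took a larger share of the counts in every set B muscle library than in any set C library. The 84 members held 1.77% of all counts in wild type library 1, 2.59% in tumour PBS and 2.35% in tumour MDC. In set C they held 1.05% in wild type library 2, 1.23% in wild type DKK1, 1.39% in knockout PBS and 1.44% in knockout DKK1. The groups by set letter did not overlap, and the largest share of set C was below the smallest of set B. Kidney shares were 1.37% in the wild type and 1.69% in the tumour library. Rn45s, the ribosomal RNA precursor, held from 0.359% (knockout PBS) to 8.29% (wild type library 2) of counts, and leaving out 4 structural RNA and related rows (Rn45s, Rmrp, Rpph1 and Lars2) gave member shares of 1.8% and 1.15% in wild type libraries 1 and 2.

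**Figure D1:**
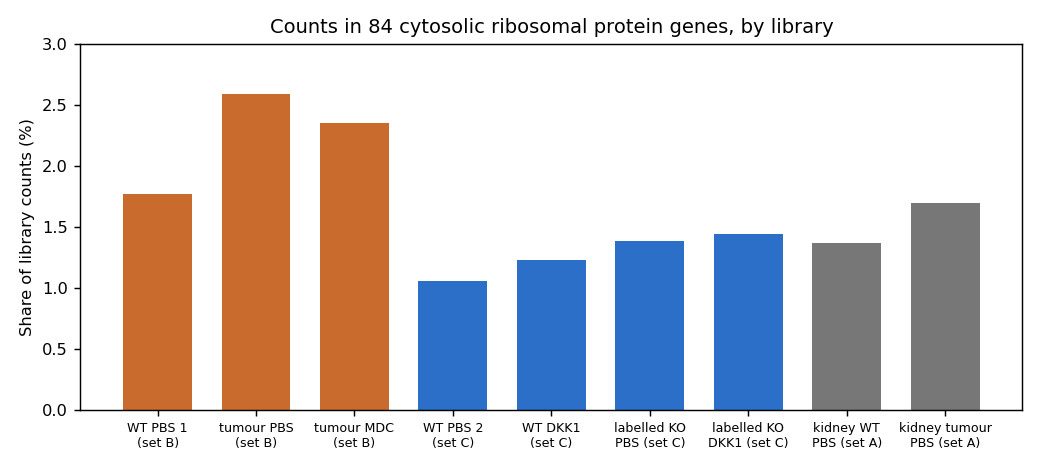
Share of each library's counts in the 84 cytosolic ribosomal protein genes, in percent, for 7 muscle and 2 kidney libraries (1 bar per library, coloured by set letter). The 3 set B muscle libraries lie between 1.77% and 2.59% and the 4 set C libraries between 1.05% and 1.44%.

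Levels between members were compared per transcript length, as RPKM within a library. The median canonical member stood at 297 RPKM in wild type library 1 and 169 RPKM in wild type library 2, and at 215 RPKM in wild type kidney. Rps15, a small subunit protein, was the canonical member with the highest RPKM in the 3 set B muscle libraries, at 795, 1187 and 1074 RPKM in wild type 1, tumour PBS and tumour MDC. Rps2, another small subunit protein, held that place in the 4 set C libraries, at 565, 667, 677 and 747 RPKM in wild type 2, wild type DKK1, knockout PBS and knockout DKK1. Rpl29 was the lowest canonical member in the 5 muscle libraries that are not labelled knockout, from 4.81 RPKM (wild type 2) to 19.5 RPKM (tumour PBS), and in both kidneys (8.29 and 10.6 RPKM). RPKM depends on the length assigned to a gene, and Rps15a, for example, carries a length of 5134 bases.

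Relative to the median canonical member of the same library, a quantity that needs no scaling between libraries, most members kept their place. Over the 7 muscle libraries the log2 level so measured spanned a median of 0.587 across the 82 members with a value in each, and 63 spanned less than 1. Rpl13a spanned 0.137, Rps10 0.227 and Rps9 0.239. Only 7 spanned more than 2 and 5 more than 3: Rpl29 (5.95), Rps18 (4.73), Rpl26 (4.57), Rps2 (3.48) and Rpl35a (3.43), with Rpl30 at 2.42 and Rpl3 at 2.26 next. Near the division at 1 the values run on without a gap, with Rpl37 at 0.973 just below it and Rpl3l at 1.01 just above.

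**Figure D2:**
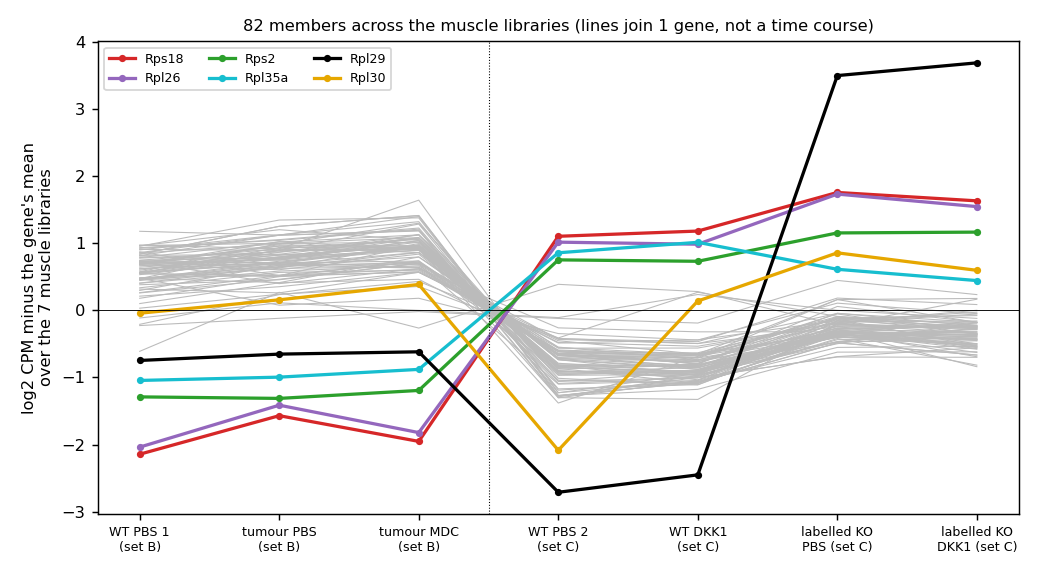
log2 CPM of 82 members minus the mean of the gene over the 7 muscle libraries (vertical axis), by library (horizontal axis), with the dotted line between set B and set C. Grey lines are single members, which lie above 0 in set B and below 0 in set C for most genes, and coloured lines are 6 of the members that depart from this.

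Of 82 members with 100 or more counts in a muscle library, 69 had CPM in each set B library above that in each set C library. Of all 11928 genes with such counts, 20.5% did so. With a gap of more than 1 on the log2 scale between the sets, the numbers were 26 members and 1.27% of genes. Rpl38, a large subunit protein known for its part in translating a subset of developmental mRNAs, had the widest gap of these (1.74). Its CPM was 140, 134 and 163 in wild type 1, tumour PBS and tumour MDC, against 25.6, 27.3, 40.1 and 40.2 in wild type 2, wild type DKK1, knockout PBS and knockout DKK1. Rps6, the small subunit protein that S6 kinase phosphorylates, was at 428, 409 and 533 CPM in set B and 209, 195, 265 and 258 CPM in set C, in the same order. Rpl5, which with Rpl11 forms the particle that binds Mdm2, was the member with the smallest gap (0.0508), at 316, 349 and 405 CPM against 200, 174, 305 and 241 CPM. The set letter goes with the groups: set B holds every muscle tumour library and set C every DKK1 library and every library labelled knockout.

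The wild type PBS libraries share genotype and treatment by their labels and lie in different sets. For members that separate the sets, the order of this pair is therefore already given above. Its size is described here. Library 2 was lower than library 1 for 75 of 83 members that passed the filter on low counts, with a median log2 difference of -1.42 against 0.0264 for all genes. By size, a change of 2-fold or more with 100 or more counts in the higher library, 62 of 81 members were lower, where 12.1% of all genes were, and 4 were higher, where 14.3% were. Rpl38 (-2.45), Rpl39 (-2.26) and Rps28 (-2.23), which encode 3 of the smallest ribosomal proteins, were the lowest. Small and large subunit genes were alike in this, at medians of -1.44 over 30 and -1.4 over 43 canonical genes. Scaled by total counts, the median was -0.97 for members and 0.465 for all genes.

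Short transcripts as a class differed in the same direction between the pair. Among genes under 600 bases the median difference was -1.66 for 31 members and -1.33 for 187 other genes, and from 600 to 1000 bases it was -1.34 for 33 members and -1 for 515 others. From 1000 to 2000 bases it was -1.09 for 13 members and -0.453 for 2245 others, and above 4000 bases other genes stood at 0.282. Across the 73 canonical members the difference and the log2 length had r = 0.214 and rho = 0.539, a description over genes that share their libraries. The part of transcript length in the difference was not tested.

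Other lists of the translation machinery had smaller median differences between the pair. The 6 cytosolic ribosomal protein genes that the symbol rule misses (Rplp0 and Rpsa among them) had a median of -1.03 with 4 of 6 lower by size. Elongation factors and other mRNAs of the pyrimidine-start class had a median of -0.838 over 17 genes, with 4 lower by size and 0 higher. Ribosome biogenesis genes, which make and assemble subunits in the nucleolus, had a median of -0.551 over 36 genes, with 3 lower by size, and mitochondrial ribosomal proteins, a family of similar function in another compartment, had -0.807 over 77 genes, with 28 lower. The mTORC1 and S6 kinase list, the pathway upstream, had a median of 0.0469 over 19 genes, with 2 higher and 0 lower by size.

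A few members ran opposite to the family. Of the 82 members, 4 had every set C library above every set B library (15.9% of all genes did so): Rps18, Rpl26, Rps2 and Rpl35a, each with a gap of more than 1 (1.58% of all genes). Rps18, a protein of the head of the small subunit (mm10 chromosome 17, 33951999 to 33956001), was at 12.4, 18.4 and 14.1 CPM in wild type 1, tumour PBS and tumour MDC, and at 117, 124, 184 and 169 CPM in wild type 2, wild type DKK1, knockout PBS and knockout DKK1. Rpl26, a large subunit protein near the exit of the nascent chain (chromosome 11, 68901583 to 68906989), was at 12.6, 19.4 and 14.7 CPM in set B and 105, 102, 172 and 151 CPM in set C. Between the wild type libraries alone, Rps18 and Rpl26 were higher in library 2 by 3.24 and 3.05 on the log2 scale.

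Rps2, a small subunit protein at the mRNA entry (chromosome 17, 24718116 to 24721929), was at 128, 126 and 137 CPM in set B and 527, 519, 695 and 701 CPM in set C. Rpl35a, of the large subunit (chromosome 16, 33056453 to 33060189), was at 17.6, 18.2 and 19.8 CPM in set B and 65.8, 73.3, 55.5 and 49.4 CPM in set C. These 4 genes were picked by the absence of overlap between the sets, so that absence is no added support. In kidney, Rps18 stood at 16.8 and 20.3 RPKM and Rpl26 at 14.1 and 20.1 RPKM in the wild type and tumour libraries, far below the median canonical member of 215 and 292 RPKM, as in set B muscle. Another 9 members fell in neither class: Rpl21, Rpl29, Rpl3, Rpl30, Rpl3l, Rpl7l1, Rps3a1, Rps4l and Rps7. Rpl30, a large subunit protein, was low in wild type library 2 alone, at 9.17 CPM against 37.7 to 70.4 CPM in the other 6 muscle libraries.

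Near-identical copies bear on how these counts were formed. Processed copies of ribosomal protein mRNAs are scattered over the mouse genome, and by BLAST against the GENCODE M21 transcripts 76 of 84 members had at least 1 annotated copy with 95% identity over 80% of the coding sequence (median 5, at most 57 for Rpl21). Rpl29 had 27 copies, Rps2 23, Rpl35a 14, Rpl30 12, Rpl26 6 and Rps18 5, and Rps6, which followed the family, had 11. For 16 members a copy has a row of its own in the deposited tables. Gm15772, a processed copy of Rpl26 on chromosome 5 with 99.5% identity, had 261, 649 and 322 counts in wild type 1, tumour PBS and tumour MDC and 2383, 3968, 4145 and 4956 counts in wild type 2, wild type DKK1, knockout PBS and knockout DKK1. That is the order of Rpl26 itself. Rps27rt, an intronless gene whose coding sequence is 100% identical to Rps27, had 6457 counts where Rps27 had 6496 in wild type library 1, and 1612 where it had 1622 in library 2. Some other copy rows held few counts: Rpl14-ps1, 98.9% identical to Rpl14, had 16 counts in wild type library 1 where Rpl14 had 8937, and Gm8580, 96.9% identical to Rpl29, had 0 in all 9 libraries. Near-equal counts under a gene and its copy were thus found in both sets, for some copies and not for others. No source used here says how reads with several positions were counted in each set. The part of that counting in these patterns was not tested.

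**Figure D3:**
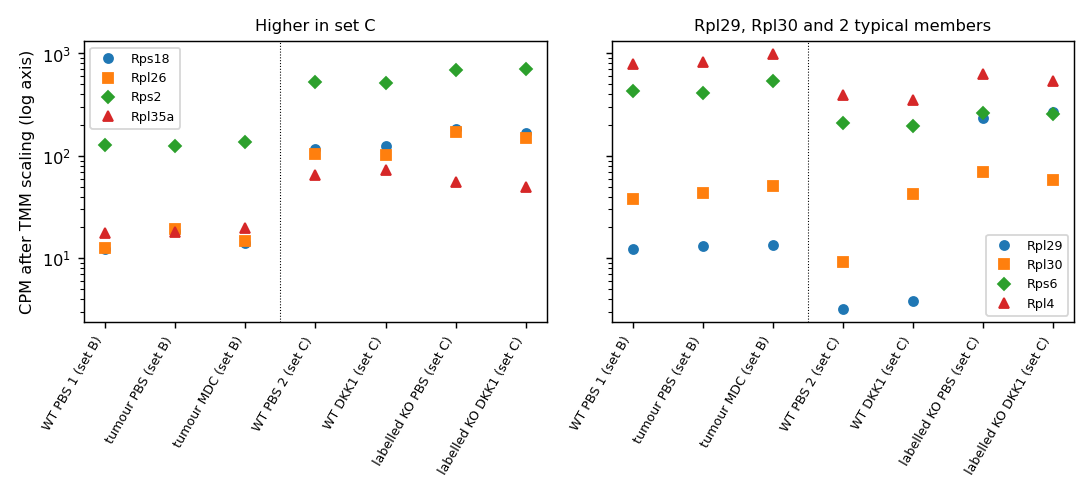
CPM after TMM scaling (log axis) in the 7 muscle libraries for the 4 members higher in set C (left) and for Rpl29, Rpl30 and 2 members that follow the family, Rps6 and Rpl4 (right), with 1 point per library and the dotted line between the sets. Rps18 and Rpl26 lie below 20 CPM in set B and above 100 CPM in set C, and Rpl29 lies above 200 CPM only in the libraries labelled knockout.

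In tumour-bearing muscle given PBS, most ribosomal protein mRNAs were modestly higher than in wild type library 1, which shares their set letter, and much higher than in library 2. The median log2 change of 83 members was 0.837 against the wild type mean (0.03 for all genes), made up of 0.182 against library 1 (69 members above 0) and 1.51 against library 2 (77 above 0). edgeR called 0 members at an adjusted p under 0.05, and 0% of 15482 genes in either direction (165 genes and 0 members at an unadjusted p under 0.05). DESeq2 and limma-voom also called 0 members. By size against each wild type library, 0 of 82 members were higher and 0 lower, where 1.31% and 0.407% of all genes were. The canonical small and large subunit genes had medians of 0.209 and 0.141 against library 1.

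Changes from the wild type mean were ranked among members with 100 or more counts in the higher library. Rps28 (log2 1.5) and Rps27 with its copy Rps27rt (1.47 each) had the largest increases, and Rps18 (-1.05), Rps2 (-1.04) and Rpl26 (-0.901) the largest decreases. Against library 1 alone, Rps18, Rps2 and Rpl26 stood at 0.571, -0.0228 and 0.622, and against library 2 at -2.67, -2.06 and -2.42. Rps28, a very small protein of the small subunit, was at 87.4 and 18.6 CPM in the wild type pair (mean 53.0 ± 48.6, SD, n = 2) and at 115 CPM in tumour PBS. Rps19, a small subunit protein mutated in Diamond-Blackfan anaemia, was at 83.7 and 37.1 CPM in the pair and 113 CPM in tumour PBS. Both lay above each wild type library, and above library 1 by less than the distance between those libraries. Beside this, summed neutrophil markers were at 13.3 CPM in wild type 1, 0.48 in wild type 2 and 312 in tumour PBS. Erythroid markers were at 460, 442 and 1818 CPM, and skeletal muscle markers at 259900, 115800 and 155900 CPM, in the same order. Their part in the change was not tested.

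Of the related lists in tumour PBS, the 6 further ribosomal protein genes had a median of 0.188 against library 1 and 1.25 against library 2, and the elongation list -0.0586 and 0.576. Ribosome biogenesis genes had -0.144 and 0.446, mitochondrial ribosomal proteins -0.293 and 0.511, and mTORC1 genes -0.13 and 0.0656. In each of these lists edgeR called 0 genes and 0 passed the size rule.

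MDC in tumour-bearing muscle went with small differences in these genes. The median log2 change from tumour PBS to tumour MDC was 0.128 (0 for all genes), with 71 of 83 members above 0. Under scaling by total counts the median was -0.159 for members and -0.28 for all genes, so the direction of the members alone depends on scaling while the distance to all genes was 0.121 to 0.136. edgeR called 0 members and 0% of genes (38 genes and 0 members at an unadjusted p under 0.05), limma-voom and DESeq2 called 0 members, and by size 0 of 82 members were higher and 0 lower, against 1.17% and 3.22% of genes. Of members with 100 or more counts, Rpl37rt (0.719), Rpl36al (0.461) and Rpl37 (0.391) were at the top, and Rpl3 (-0.532), Rpl26 (-0.406) and Rps18 (-0.381) at the bottom. Rpl39l stood at -1.19 on 10 counts with PBS and 2 with MDC. Beside these values, summed neutrophil markers were at 312 CPM in tumour PBS and 37.2 CPM in tumour MDC, macrophage markers at 251 and 128, slow fibre markers at 188 and 1291, and erythroid markers at 1818 and 3413 CPM. Their part in the difference was not tested.

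Against the wild type pair, tumour MDC stood at a median of 0.993, with 0.311 against library 1 (80 of 83 above 0) and 1.69 against library 2 (77 above 0). The 2 tumour comparisons share the wild type libraries. edgeR called 0 members (231 genes and 1 member at an unadjusted p under 0.05), as did DESeq2 and limma-voom, and by size 0 of 81 members passed in either direction, where 0.719% of genes were higher and 0.663% lower. Rpl4, a large subunit protein lining the exit tunnel, was at 788 and 396 CPM in the wild type pair, 830 CPM in tumour PBS and 985 CPM in tumour MDC. Rpl10, needed for joining of the subunits, was at 590 and 234, then 593 and 671 CPM. Rpl11, the partner of Rpl5, was at 312 and 99.8, then 337 and 399 CPM.

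DKK1 in wild type muscle left the family close to the wild type library of its own set. The median log2 change was -0.0326 against library 2 (35 of 83 members above 0) and -1.46 against library 1 (10 above 0), which gave -0.734 against the mean. edgeR called 0 members and 0% of genes (206 genes and 0 members at an unadjusted p under 0.05). The other tools, DESeq2 and limma-voom, made 0 calls among members. By size 0 of 82 members were higher and 0 lower, where 2.3% and 0.24% of genes were. Against the mean, and among members with 100 or more counts, Rps18 (1.7), Rpl26 (1.49) and Rpl30 (1.2) were highest and Rpl38 (-1.13), Rps20 (-1.08) and Rpl36al (-1.03) lowest, while Rpl39l stood at 1.55 on 0 and 8 counts in the wild type pair and 17 with DKK1. Against library 2 alone, Rpl30 stood at 2.21, Rpl26 at -0.03 and Rps18 at 0.08. Rps6 was at 195 CPM with DKK1 and 209 CPM in library 2, and Rpl13a, a large subunit protein also released in inflammation to repress translation, at 217 and 229 CPM.

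Within set C, both libraries labelled knockout had higher ribosomal protein mRNAs than the wild type library with the same treatment. With PBS the median log2 change against wild type library 2 was 0.564, with 79 of 83 members above 0, and with DKK1 it was 0.449 against wild type DKK1, with 78 above 0 (-0.0154 for all genes). These pairs share no library. In both pairs 77 members were higher, 3 were lower (Rpl3, Rpl35a and Rps19bp1) and 3 differed in direction. The share of all genes that were higher in both pairs was not counted, so these counts describe the members only. In the DKK1 pair alone, 48.4% of all genes were above 0. For the PBS pair with wild type library 1 left out, the median was 0.565 for members and -0.0202 for all genes. Scaled by total counts the DKK1 median was 0.178 with all genes at -0.282, so the distance from all genes was 0.46 where it had been 0.465. Against wild type library 1, of set B, knockout PBS was lower, at a median of -0.879 with 13 of 83 members above 0, so the direction of the knockout PBS comparison depends on which wild type library is the reference.

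Rps20, a small subunit protein, was at 80.4 and 79 CPM in wild type 2 and wild type DKK1 and at 172 and 162 CPM in the libraries labelled knockout. Rps7, of the small subunit, was at 115 and 107 CPM and then at 194 and 197 CPM, and Rpl5 at 200 and 174 and then 305 and 241 CPM. For these genes the groups by label did not overlap within set C, and the share of all genes that did so was not counted. Rps20 and Rps7 were also picked with their levels already known. The lack of overlap therefore describes these genes and is no support for a link with the label. Rps19bp1 was lower under the knockout label in both pairs, at 8.29 and 7.96 CPM and then 7.96 and 5.55 CPM. Beside these values, summed adipocyte markers were at 1058 and 920 CPM in wild type 2 and wild type DKK1 and at 136 and 110 CPM in the libraries labelled knockout. In the same order, endothelial markers were at 360 and 674 and then 193 and 217 CPM. Slow fibre markers were at 484 and 607 and then 85.5 and 5060 CPM, and skeletal muscle markers at 115800 and 81250 and then 176400 and 149900 CPM. Their part in the difference was not tested.

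By test, edgeR called 0 members in knockout PBS against wild type PBS (182 genes and 2 members at an unadjusted p under 0.05, 0% of genes adjusted) and 0 in knockout DKK1 against wild type DKK1 (218 genes and 1 member unadjusted). limma-voom called 0 in each, and DESeq2 called 1 in each, which was Rpl29, so nothing is read from it. By size, 1 of 81 members was higher with PBS (Rpl29, 0.745% of genes) and 0 lower (0.616%), and 3 of 81 were higher with DKK1 (Rpl29, Rps20 and Rps27l, 2.65% of genes) and 0 lower (9.96%). The elongation list had medians of 0.381 against wild type library 2 with PBS and 0.403 with DKK1, ribosome biogenesis 0.265 and 0.186, mTORC1 genes 0.0471 and 0.33, and mitochondrial ribosomal proteins 0.206 and 0.0202. The 6 further ribosomal protein genes had 0.269 and 0.288.

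DKK1 in the libraries labelled knockout went with little difference, at a median of -0.0791 from knockout PBS (-0.0125 for all genes), with 24 of 83 members above 0. Scaled by total counts the median was 0.0505 and that of all genes 0.109. edgeR called 0 members (48 genes and 0 members at an unadjusted p under 0.05), as did DESeq2 and limma-voom, and by size 0 of 80 members were higher or lower, where 2.18% and 0.683% of genes were. Of members with 100 or more counts, Rpl3 (0.385), Rpl32 (0.315) and Rps16 (0.202) were highest and Rps19bp1 (-0.515), Rpl36al (-0.403) and Rpl36a (-0.371) lowest. Rpl39l stood at 0.778 on 7 counts with PBS and 18 with DKK1. Summed slow fibre markers were at 85.5 CPM in knockout PBS and 5060 CPM in knockout DKK1, and erythroid markers at 375 and 857 CPM, and their part was not tested. The difference of the DKK1 effects, knockout minus wild type, had a median of 0.645 over 83 members, but it was -0.0594 with wild type library 2 alone as the PBS reference and 1.3 with library 1 alone. edgeR called 0 members and 0% of genes for it (44 genes and 0 members unadjusted), and DESeq2 and limma-voom called 0.

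Rpl29 stood apart from every other member. It encodes a small basic protein of the large subunit (chromosome 9, 106429454 to 106431568), and it was included because it goes with the label, so the values are given without a test. It was at 12.4, 13.3 and 13.6 CPM in wild type 1, tumour PBS and tumour MDC, at 3.19 and 3.81 CPM in wild type 2 and wild type DKK1, and at 235 and 268 CPM in knockout PBS and knockout DKK1. Both libraries labelled knockout were far above the other 5, by a log2 gap of 4.11. At 5.2 against the wild type mean (4.23 and 6.17 against libraries 1 and 2) and 6.11 against wild type DKK1, it had the largest log2 change of the members. Per length it was at 322 and 402 RPKM there, above the median canonical member of 219 and 228 RPKM, and in the other 5 muscle libraries it was at most 19.5 RPKM.

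Ranked by that gap over all 11928 genes, Rpl29 came next after 2310016D03Rik (4.95) and ahead of Trim12a (3.4), Trim30d (2.89), Gpr75 (2.73) and Nxpe4 (2.51). These lie on chromosomes 12, 7, 7, 11 and 9. A gap of more than 4 was found in 2 genes (0.0168%). Rpl29 was included for this same pattern, so its rank and this share describe it and are no support. In all, 6 members had both libraries labelled knockout above the other 5 (Rpl29, Rpl26, Rps18, Rps2, Rpl21 and Rpl30), against 10.4% of all genes, and 0 members had both below, against 9.31%. Of 22 genes within 1 Mb of Rpl29 that had 100 or more counts, 18 differed by less than 1 on the log2 scale between the libraries labelled knockout and the wild type libraries of set C. Their median was -0.154, from -1.58 (Hemk1) to 1.18 (Parp3), and Acy1, the next gene, was at -0.205. Rpl29 in kidney had 250 counts in the wild type and 333 in the tumour library, a low level like that of wild type muscle.

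Rpl3 and its paralogue Rpl3l traded places between the tissues. Rpl3 is a core protein of the large subunit that reaches toward the peptidyl transferase centre (chromosome 15, 80077791 to 80091868), and Rpl3l takes its place in ribosomes of striated muscle (chromosome 17, 24727820 to 24736143). Rpl3l was at 294, 295 and 260 RPKM in wild type 1, tumour PBS and tumour MDC and at 226, 254, 281 and 276 RPKM in wild type 2, wild type DKK1, knockout PBS and knockout DKK1. In kidney it was at 1.23 (wild type) and 0.762 RPKM (tumour), from 83 and 54 counts. Rpl3 was at 142 and 184 RPKM in kidney and at 17.4 to 52.6 RPKM in muscle.

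The muscle ratio of Rpl3l to Rpl3 varied more than Rpl3l itself. It was 16.9 in wild type 1, 6.95 in tumour PBS and 10.8 in tumour MDC, and 4.78 in wild type 2, 4.82 in wild type DKK1, 9.96 in knockout PBS and 6.85 in knockout DKK1. In kidney it was 0.0086 and 0.00414. Rpl3l thus made 94.4% of the pair's summed RPKM in wild type 1 and 82.7% in wild type 2. The wild type pair held nearly the whole range of the muscle ratios, and the tumour, MDC and DKK1 libraries fell inside it, as did those labelled knockout. Rpl3l has no near-identical annotated copy, while Rpl3 has 7.

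**Figure D4:**
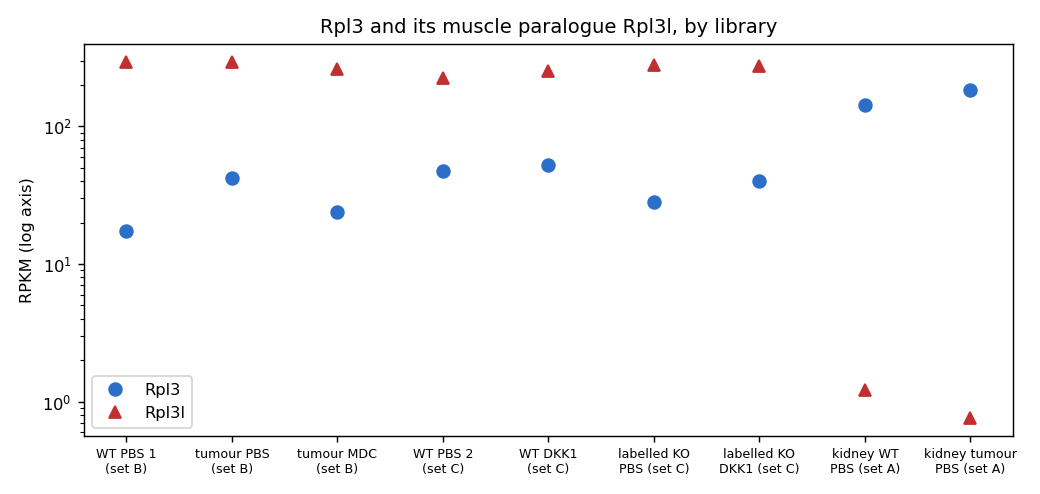
RPKM (log axis) of Rpl3 (circles) and Rpl3l (triangles) in each of the 9 libraries, 1 point per library. Rpl3l lies between 226 and 295 RPKM in muscle and near 1 RPKM in kidney, and Rpl3 lies between 17.4 and 52.6 RPKM in muscle and at 142 and 184 RPKM in kidney.

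Other paralogues gave smaller contrasts between the tissues. The RPKM ratio of Rpl22l1 to Rpl22, large subunit proteins that can replace each other, was 2.06, 2.48 and 2.71 in wild type 1, tumour PBS and tumour MDC, 1.62, 1.45, 1.81 and 1.87 in set C, and 0.692 and 0.749 in the kidneys. All 7 muscle values lay above both kidney values. The ratio of Rpl36al to Rpl36a was 1.21 and 1.45 in the wild type pair, 0.859 and 0.955 in the tumour libraries and 1.32 to 1.36 in the remaining muscle libraries, and in kidney it was 1.38 in the wild type and 0.838 in the tumour library. In both tissues the tumour libraries were thus below the libraries without a tumour, with 1 library per group and no test. The ratio of Rps27l, a p53-induced paralogue, to Rps27 was 0.347 and 0.395 in the wild type pair, 0.263 and 0.212 in tumour PBS and tumour MDC, 0.359 in wild type DKK1 and 0.44 and 0.546 in knockout PBS and knockout DKK1. In kidney it was 0.43 in the wild type and 0.42 in the tumour library.

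Rpl7l1, a relative of Rpl7 that acts in ribosome assembly, was at 41.3 and 41.5 CPM in the wild type pair and did not follow the set letter, from 41.2 to 52.7 CPM over the 7 muscle libraries. Rps4l was at 0.0086 to 0.0196 of Rps4x per length in muscle and 0.0317 and 0.0416 in kidney. Rpl10l, a testis paralogue, had 0 counts in all 9 libraries, while Rpl10 had from 5353 to 23588. A count of 0 allows up to 3 counts, which is 0.141 CPM in wild type 1 and 0.131 CPM in wild type 2. Rpl39l, also known from testis, had 0 to 18 counts in muscle and 0 in kidney, and its passing the filter rests on those few reads.

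Between wild type kidney and muscle, Rpl3l differed most among these genes. The median log2 difference, kidney minus muscle, was -0.582 over 83 members (0.132 for all genes), but -1.21 against library 1 and 0.0923 against library 2, and it was 0.0206 for members and 0.709 for all genes under scaling by total counts. edgeR called 0 of 83 members higher and 1 lower, where 8.45% and 4.75% of 16811 genes were. The 1 member is Rpl3l, at -8.26, which was chosen for this pattern. DESeq2 called 5 members (Rpl3l, Rpl22l1, Rpl26, Rpl35a and Rps18) and limma-voom 1 (Rpl3l). The share of all genes that these 2 tools called was not counted. Of the others, Rpl3 (1.71), Rps4l (1.32) and Rpl41 (0.66), the shortest ribosomal protein, were highest in kidney, and Rpl26 (-2.71) and Rps18 (-2.59) lowest. Against muscle libraries 1 and 2 in turn, Rpl26 stood at -1.17 and -4.25, Rps18 at -0.95 and -4.23, and Rpl41 at -0.0377 and 1.36. By size 2 of 82 members were higher and 4 lower, against 24.7% and 13.6% of genes.

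In kidney with a tumour, most ribosomal protein mRNAs were slightly more abundant. Of 82 members with counts, 76 were above the wild type library, with a median log2 change of 0.341 against 0.00126 for all genes. The 95% counting interval of the ratio lay wholly above 1 for 73 members, where it did for 35.9% of all genes, wholly below 1 for 6, where it did for 34.8%, and across 1 for 3. These intervals cover counting error only, and with 1 library per group there is no replicate check. Small and large subunit genes had medians of 0.294 and 0.358.

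Rpl31, a large subunit protein, was at 78.7 CPM in wild type and 154 CPM in tumour kidney, a log2 change of 0.969. By the size rule 1 of 81 members was higher, where 5.69% of all genes were, and 0 were lower, where 4.03% were. Rpl41 (-0.328), Rps2 (-0.314) and Rpl36al (-0.0966) were lower in the tumour library, with Rpl41 at 359 CPM in wild type and 286 CPM in tumour kidney.

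The 6 further ribosomal protein genes had a median of 0.572 in tumour kidney, elongation factors 0.0119, ribosome biogenesis 0.0707, mTORC1 genes 0.0859 and mitochondrial ribosomal proteins -0.0847. Among genes under 600 bases the median was 0.361 for 31 members and 0.184 for 220 others, and from 600 to 1000 bases 0.342 for 34 members and -0.0181 for 634 others. Beside this, summed kidney tubule markers were at 34570 CPM in wild type and 17900 CPM in tumour kidney, adipocyte markers at 138 and 1354 CPM, erythroid markers at 406 and 1663 CPM and neutrophil markers at 0.827 and 18.2 CPM, with Camp, Mpo and Elane at 0 in the wild type. Their part in the change was not tested.

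**Figure D5:**
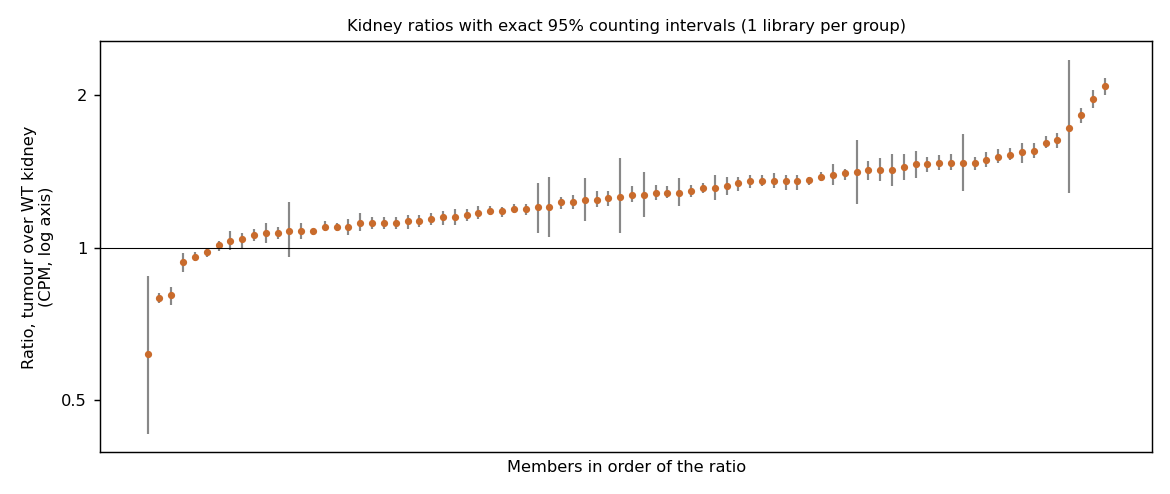
Ratio of CPM in tumour over wild type kidney (log axis) for 82 members in order of the ratio, with vertical lines for exact 95% counting intervals and 1 library per group. The lowest point is Rpl3l at 0.618, on 54 and 83 counts, and 73 of the intervals lie wholly above 1.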

How the data were processed

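Members and gene lists were chosen with earlier results of these data known, so no list is independent support. The deposited tables (1 per library) give raw read counts per gene, not normalised by the authors, and RPKM, which the authors computed from those counts. Reads were aligned with HISAT2 2.1.0 to mm10, per the submitters' processing notes. No source used here gives the counting program, annotation, strand setting or handling of multi-position reads. Total RNA was extracted with TRIzol, per the labels' protocols.

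TMM scaling, CPM and log2 CPM (prior count 2) used edgeR 4.0.16 (R 4.3.3). The muscle fit took all 7 libraries, 1 coefficient for each group and 15482 genes left by filterByExpr (minimum count 10), with edgeR's quasi-likelihood test and Benjamini-Hochberg adjustment at 0.05. It has 1 residual degree of freedom and 15.2 prior degrees of freedom, and its biological coefficient of variation of 0.498 comes from wild type libraries of different sets. The tissue contrast used all 9 libraries and 16811 genes. Kidney (15986 genes) was described with no test. Of the members, 83 passed the filter in muscle and 82 in kidney. A change against wild type PBS is the mean of the changes against each library. The size rule asks for at least 2-fold, with at least 100 counts in the library that is higher, against each wild type library where these are the reference. CPM in kidney and muscle were scaled separately outside the tissue contrast. Genes were named by a rule: the 3 highest and 3 lowest members in each comparison, among those whose higher library held at least 100 counts, and a panel of paralogues and well-known subunits. Others, such as Rpl30, Rps20 and Rps7, were chosen after their values were seen. Copies were found with BLAST 2.17.0 on GENCODE M21 coding sequences. Promoter sequences are RefSeq, build GRCm38.p6. Methods were tested on simulated data. Values of some members are not reported here. DESeq2 1.42.0 and limma 3.58.1 (voom), other scalings, no filter, another prior count and leaving out each wild type library were alternatives.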

Additional observations from a re-analysis of the deposited data

Results flagged for a closer look

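Rpl41, which encodes the shortest ribosomal protein, had opposite signs of the tumour difference in the tissues: -0.328 in kidney and 1.01 in muscle on the log2 scale, a difference of -1.34. It comes from a search of the panel and the members named by rule, with 1 tumour PBS library per tissue. That library was below wild type in kidney and above each wild type library in muscle, by 0.298 and 1.73 for libraries 1 and 2. Rps15 and Rpl8, outside that search, had the same pattern, at -0.0586 and -0.0314 in kidney. In muscle they stood at 0.169 and 0.204 against library 1 and at 1.85 and 0.896 against library 2. These differences were not tested.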

How the results depend on the processing

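No paired analysis was possible because only wild type PBS muscle carries replicate numbers. Of the median changes and counts of members, most were labelled as kept under the alternatives, but for the medians this label says little. In tested comparisons a median counted as kept if it moved by less than a spread taken from the wild type pair. The members of that pair differed by a median of -1.42, so the allowance was wide. The median for tumour MDC against tumour PBS counted as kept at 0.128 and at -0.159. Medians that changed sign with the scaling or with the wild type library are given beside those results. Leaving out a wild type library gave, for members 2-fold or more higher and lower, 66 and 4 (tumour PBS) and 70 and 4 (tumour MDC) without library 1 and 0 without library 2, 1 higher and 0 lower without library 1 and 4 higher and 61 lower without library 2 (wild type DKK1), 4 to 5 higher and 0 to 28 lower (knockout PBS), and 52 lower without library 2 (kidney against muscle). The share of all genes under these settings was not counted, so nothing particular to the members is read from these counts. For scale, 12.1% of all genes were lower by size in wild type library 2 than in library 1, and 14.3% were higher. The cause was not tested. Scaling by total counts, with or without the 4 RNA rows, gave 2 higher and 1 called for knockout PBS, 1 higher for knockout DKK1 against wild type DKK1, and 1 lower for kidney against muscle. For the wild type pair it gave medians of -0.97 and -0.872 with 39 and 32 members lower, and no filter gave -1.37 and leaving out members with a copy row -1.34. The kidney median was 0.352 and 0.36 under those scalings, 0.343 with factors computed without the members, 0.345 with no filter, 0.336 for canonical members, 0.353 without the 6 members that stand apart and 0.305 without those with a copy row. DESeq2 called 1 member in each knockout comparison with wild type (Rpl29). In kidney against muscle, total counts called 2 members (3 without the RNA rows), factors without the members 2, no filter 4 and DESeq2 5 (Rpl3l, Rpl22l1, Rpl26, Rpl35a and Rps18). Shares of all genes passing the size rule or called under the other scalings, filter and tools were not counted either. The alternatives without the 6 members and without those with a copy row were chosen after seeing the data. Depth limits Rpl10l and Rpl39l, with at most 18 counts.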
